A study of Saccharomyces cerevisiae with 4 samples.

Results

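The 2 arms of chromosome VII of budding yeast (*Saccharomyces cerevisiae*) were described origin by origin, without the 20 kb at each end and without the pericentromere. The left window runs from 20000 to 477000 and the right window from 517000 to 1070900 in genome release R64, 457 and 553.9 kb long. Members were taken by position alone: they are the 23 replication origins of the study's list whose midpoint falls inside a window, of 392 in that list and of 28 on chromosome VII, and 20218 of the 243150 bins of the BrdU profile. The left window holds 11 of the origins and the right window 12, and 19 carry an ARS name, for autonomously replicating sequence, while 4 are unnamed.

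The study measured DNA synthesis in *rif1Δ* and *WT* cells by BrdU-IP-Seq, the sequencing of DNA immunoprecipitated with an antibody to bromodeoxyuridine (BrdU). Both strains are W303-derived haploids of mating type a that carry can1-100, trp1-1, his3-11,15, ura3-1 and ade2-1, lack *BAR1* (bar1Δ::hisG), and hold the BrdU-Inc cassette at *LEU2*, which allows yeast to use BrdU. The *rif1Δ* strain differs by replacement of *RIF1* with a KanMx marker. Cells of both strains were held in G1 with 7.5 nM α-factor for 4 h at 23 °C and released for 45 min into hydroxyurea (HU), 200 µg/mL pronase and 400 µg/mL BrdU, with 2 libraries per strain. The labels give the HU dose as 0.2 without a unit and the study's methods give it in M. The deposited profile holds the authors' mean of the 2 libraries of each strain, so no difference between strains below has a replicate check, an error or a p-value, and the number of reads behind a bin is unknown.

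BrdU is a thymidine analog that marks new DNA, and HU starves cells of deoxyribonucleotides, so that origins firing early are labeled while their forks stall and the checkpoint holds back origins that would fire late. An origin is licensed in G1 by loading of the MCM helicase and fires in S-phase when the kinase DDK phosphorylates MCM. Rif1 binds telomeres and other chromosomal sites and recruits a phosphatase that opposes DDK, and loss of Rif1 is known to advance late origins.

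The signal is smoothed coverage in 50 bp bins, in arbitrary units. Over all bins the mean was 14.7 in both *rif1Δ* and *WT* cells, and the sorted values of the strains differed by 0.264 on average, against 5.95 bin by bin, so the columns hold nearly the same set of values in different places and total incorporation cannot be compared between strains. *RIF1* itself (YBR275C, chromosome II, 751356 to 757106) had a mean signal of 0.433 in *rif1Δ* and 3.09 in *WT* cells. Over both arms of chromosome VII the mean was 10.2 in *rif1Δ* and 10.2 in *WT* cells. Away from origins, in bins at least 10 kb from any listed origin, the median was 3.25 in *rif1Δ* and 3.13 in *WT* cells on either arm.

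The signal of an origin was the mean over bins within 500 bp of the midpoint of its listed interval, and strains were compared as log2((*rif1Δ* + 1)/(*WT* + 1)), which understates differences at low signal. At 15 of the 23 origins the signal was higher in *rif1Δ* cells and at 8 it was lower. Over all 392 listed origins 65.6% were higher in *rif1Δ* cells. The log2 ratio was above 1, a 2-fold difference on that scale, at 10 of the 23 (43.5%), against 41.6% of all listed origins, and below -1 at 2, against 8.93%. The shares on chromosome VII were thus near those of the whole list. The list holds only origins at which the authors called a peak in these same libraries, so an origin silent in *WT* cells entered the list only through *rif1Δ* cells. The arms differed from each other: 6 of 11 left-arm origins and 4 of 12 right-arm origins were above 1, none on the left and 2 on the right were below -1, and the median log2 ratio was 1.19 on the left and 0.10 on the right. The right-arm median was 0.90 when only isolated intervals of at most 1000 bp were kept, against 1.51 on the left, and -0.058 with the mean within 2.5 kb of the midpoint.

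**Figure D1:**
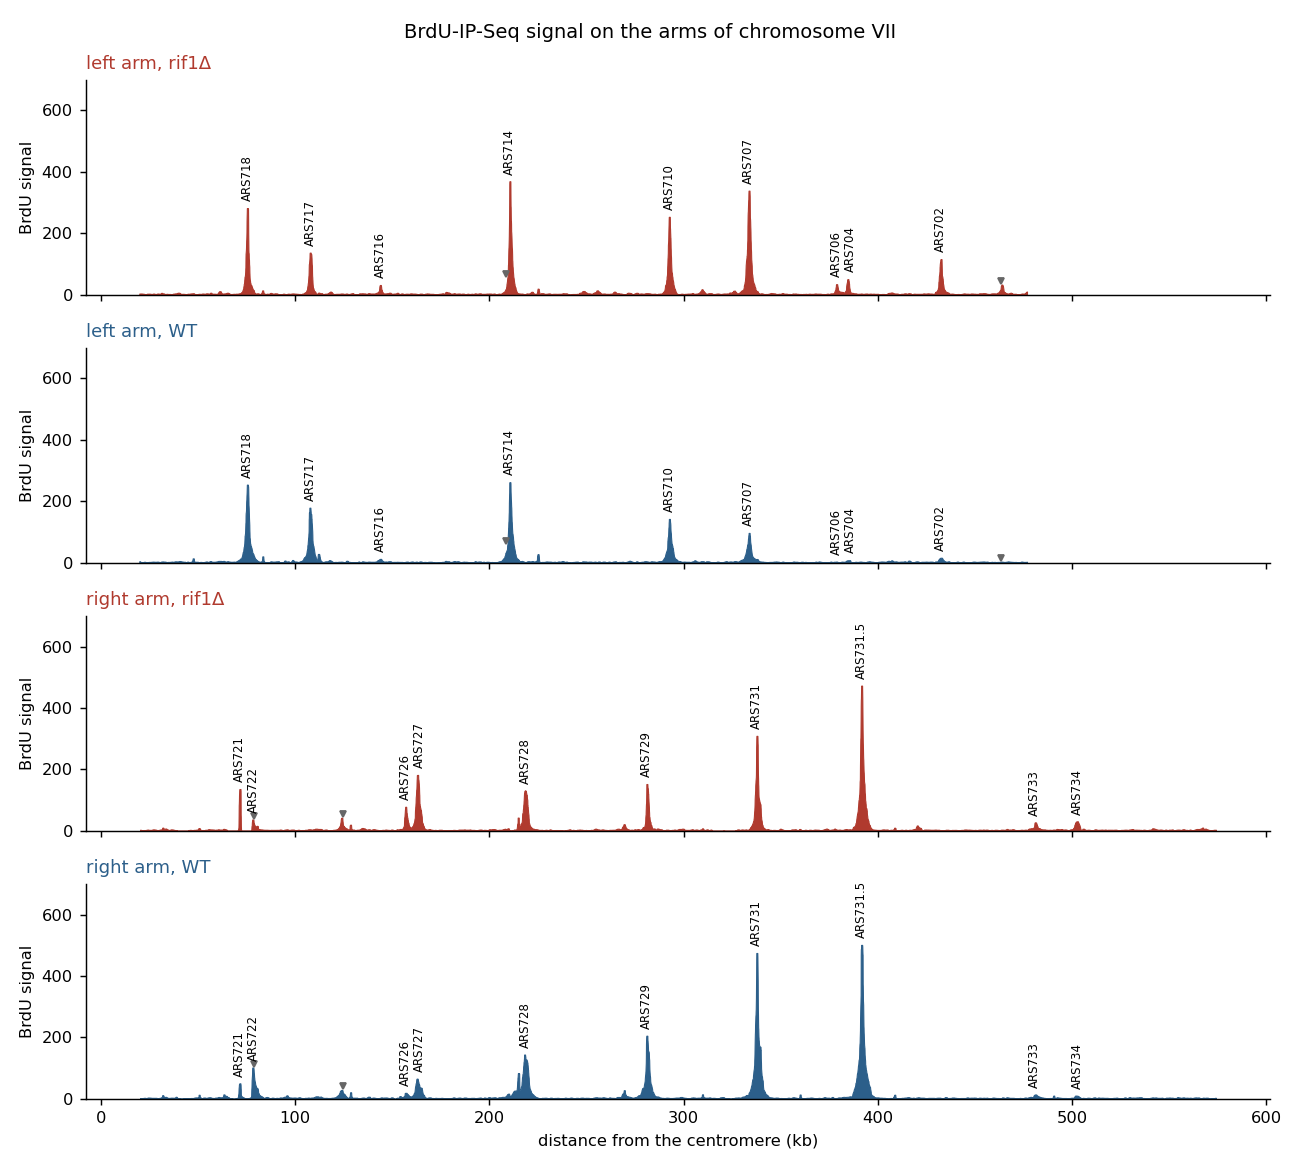
BrdU signal (arbitrary units, 50 bp bins) against distance from the centromere in kb, with *rif1Δ* above *WT* for the left arm (upper panels) and for the right arm (lower panels); names mark listed origins and triangles the 4 unnamed ones. More than 5 kb beyond ARS707 on the left arm the *WT* profile stays at or below 16.3 while *rif1Δ* reaches 116, and the highest peak of either strain is ARS731.5 on the right arm.

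At the outer end of the left arm, *rif1Δ* cells had summits of a height of at least 20 where *WT* cells had none. With a limit of 10, which was also tried, this need not hold, since *WT* cells reached 16.3 at ARS702. No *WT* summit lay between the edge of the window and ARS707, over 143 kb, whereas *rif1Δ* cells had 4 summits there, 1 at each of the 4 listed origins. Leaving out the last 5 kb before ARS707, the mean signal of this stretch was 6.47 in *rif1Δ* and 3.27 in *WT* cells, and its highest bin 116 in *rif1Δ* and 16.3 in *WT* cells. All 4 origins had log2 ratios above 2, but with a pseudocount of 10 only ARS702 did, the other 3 having 1.52 to 1.70.

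The outermost, an unnamed origin at 31980 to 34434, overlaps *ZIP2*, a gene of meiotic chromosome synapsis, together with *RMR1* and *RME3*. Its signal was 28.8 in *rif1Δ* and 3.53 in *WT* cells, a log2 ratio of 2.72, and the *WT* value is close to the level away from origins. ARS702 (64279 to 64528) overlaps the end of *SAP4*, whose product works with the phosphatase Sit4. It had 112 in *rif1Δ* and 16.01 in *WT* cells (log2 ratio 2.73), the highest *rif1Δ* signal of the 4. ARS704 and ARS706 lie 5.51 kb apart. ARS704 (112080 to 112319) sits between YGL204C and *KEX1*, a carboxypeptidase that processes α-factor and killer toxin, and had 48.0 in *rif1Δ* and 7.92 in *WT* cells (log2 ratio 2.46). ARS706 (117471 to 117955) overlaps *ARO8*, an aromatic aminotransferase, and *MCM6*, which encodes a subunit of the MCM helicase itself. Its signal was 29.4 in *rif1Δ* and 3.10 in *WT* cells, the lowest *WT* signal of all 23 origins, with a log2 ratio of 2.89. The size and order of these ratios at low signal depend on the processing. With a pseudocount of 10 in place of 1, ARS706 had 1.59 and ARS702 2.23, and with the background median subtracted ARS706 had 4.41 and ARS702 2.98. Between these neighbors the signal did not go below 7 in *rif1Δ* cells and went down to 2.13 in *WT* cells.

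ARS707 (163180 to 163447), at the end of *TOS3*, which encodes a kinase acting upstream of Snf1, was the next origin inward. Its signal was 318 in *rif1Δ* and 88.3 in *WT* cells, a log2 ratio of 1.84. In *rif1Δ* cells it thus stood next to the strongest origins of the arm, while in *WT* cells it was below ARS710, ARS714, ARS717 and ARS718. ARS710 (203917 to 204159), between YGL159W and the tRNA gene YNCG0008W, had 236 in *rif1Δ* and 136 in *WT* cells (log2 ratio 0.79). ARS714 (285951 to 286246), just beyond *COQ8*, a gene of coenzyme Q synthesis, had 330.0 in *rif1Δ* and 245 in *WT* cells (log2 ratio 0.43) and was the strongest origin of the left arm in both strains.

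The unnamed origin at 287952 to 289013, over YGL118C and *ARO5*, had no summit of its own in either strain and lay 2.38 kb from ARS714, on the shoulder of that peak. It had 17.9 in *rif1Δ* and 30.4 in *WT* cells, a log2 ratio of -0.73. ARS716 (352695 to 352917), between *GUP1*, a membrane acyltransferase, and *SCY1*, had 29.1 in *rif1Δ* and 12.2 in *WT* cells (log2 ratio 1.19), and only *rif1Δ* cells had a summit there. With a mean over 2.5 kb on each side its log2 ratio was 0.66, below the 2-fold threshold. The 2 left-arm origins nearest the centromere differed little between strains within 500 bp of the midpoint. With the mean within 2.5 kb both were lower in *rif1Δ* cells, with log2 ratios of -0.61 at ARS717 and -0.21 at ARS718. ARS717 (388658 to 388892), at the end of *PYC1*, which encodes pyruvate carboxylase, had 134 in *rif1Δ* and 167 in *WT* cells (log2 ratio -0.32). ARS718 (421093 to 421342), between *HEM2*, a gene of heme synthesis, and the tRNA gene *SUP54*, had 254 in *rif1Δ* and 244 in *WT* cells (log2 ratio 0.06).

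On the right arm, the 2 named origins nearest the centromere had opposite differences although they lie 6.16 kb apart. ARS721 (568490 to 568738), between YGR038C-A and YGR039W, had 94.3 in *rif1Δ* and 38.3 in *WT* cells (log2 ratio 1.28, and 0.87 with the mean within 2.5 kb, below the 2-fold threshold). ARS722 (574622 to 574916), which overlaps YGR039W, had 29.4 in *rif1Δ* and 84.2 in *WT* cells (log2 ratio -1.49). ARS721 was thus 3.21 times ARS722 in *rif1Δ* cells and 0.455 times ARS722 in *WT* cells. An unnamed interval at 574978 to 576840, over YGR039W and *KSS1*, the MAP kinase of filamentous growth, had 19.3 in *rif1Δ* and 64.4 in *WT* cells (log2 ratio -1.69). This interval holds the summit assigned to ARS722, so the 2 origins of the arms with log2 ratios below -1 share 1 peak. When only intervals of at most 1000 bp without a listed neighbor within 5 kb were kept, no origin of the arms was below -1.

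ARS721 stood between 2 stretches of very low signal. In *rif1Δ* cells the signal from 561851 to 567400, over YGR038C-B, and from 569001 to 574250, between ARS721 and ARS722, had a median of 0.25 in both. In *WT* cells the medians of the same stretches were 2.38 and 2.88. The 1.6 kb between them held the ARS721 peak, with a mean of 86.6 in *rif1Δ* and 37.4 in *WT* cells. Of stretches of at least 1 kb in which every bin was at 1 or less, *rif1Δ* cells had 5 on the right arm, each over 5 kb long and 28.15 kb in all, with medians of 1.5 to 2.88 there in *WT* cells. *WT* cells had 4 on that arm, the longest 1.9 kb, and the left arm had none above 2.2 kb in either strain. The other 3 in *rif1Δ* cells cover YGR027W-B (536001 to 541950), YGR161W-B (811451 to 817150) and YGR161C-D (817701 to 823400). Whether the strains differ there in sequence or in how reads were placed was not tested. The log2 ratio of the right-arm means was -0.27 with all bins and -0.25 without bins of 1 or less.

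**Figure D2:**
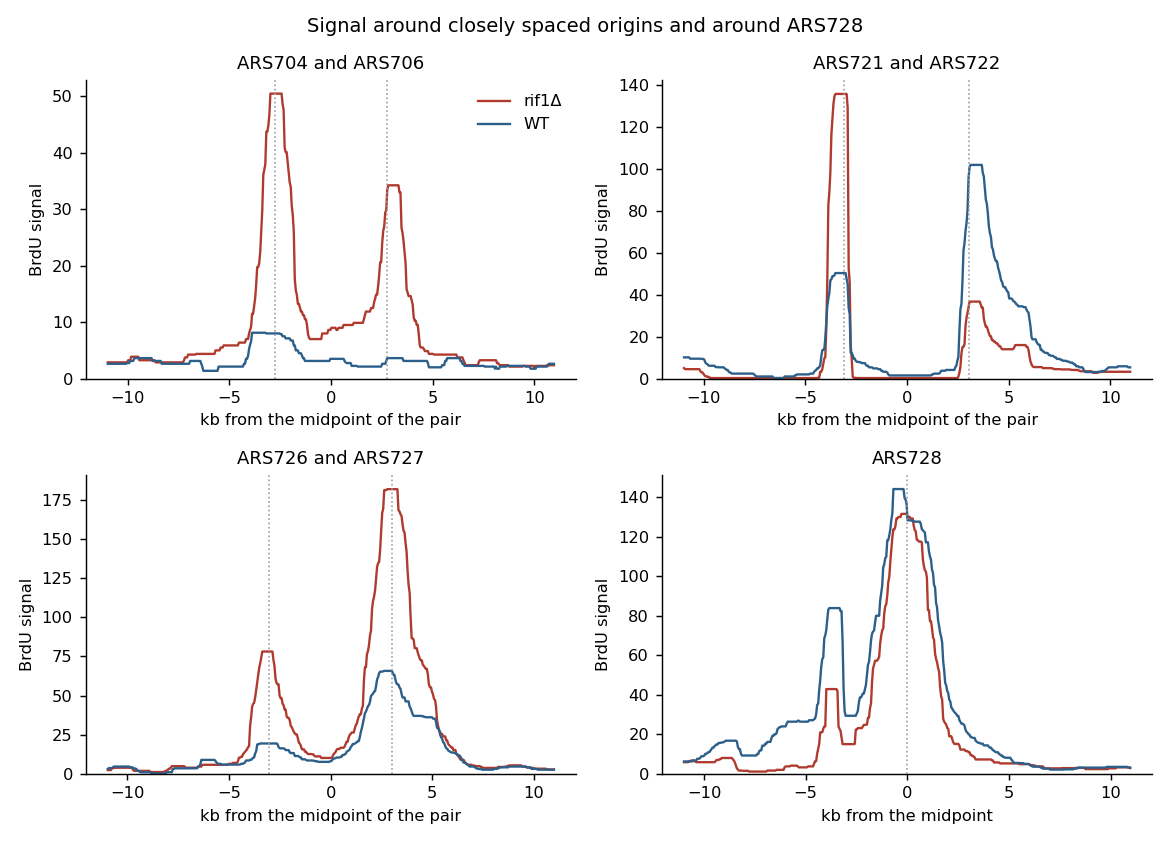
BrdU signal of *rif1Δ* (red) and *WT* (blue) cells within 11 kb of the midpoint of 3 pairs of close origins and of ARS728, with dotted lines at the listed midpoints. ARS721 is higher than ARS722 in *rif1Δ* cells (ratio 3.21) and lower in *WT* cells (ratio 0.455). ARS704 and ARS706 have summits of at least 20 in *rif1Δ* cells only.

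Farther out, an unnamed origin at 620243 to 622517, over *GID10*, a substrate receptor of the GID ubiquitin ligase, and YGR067C, had 27.0 in *rif1Δ* and 22.4 in *WT* cells (log2 ratio 0.26). ARS726 and ARS727 form another close pair, 6.08 kb apart, and both were higher in *rif1Δ* cells. ARS726 (653611 to 654091), between *PDC6*, an isoform of pyruvate decarboxylase, and *CTT1*, the cytosolic catalase, had 71.5 in *rif1Δ* and 19.1 in *WT* cells (log2 ratio 1.85). ARS727 (659809 to 660054), between *NNF2* and the noncoding transcript *SUT126*, had 177 in *rif1Δ* and 61.3 in *WT* cells (log2 ratio 1.52). The lowest signal between them was 10.1 in *rif1Δ* and 7.63 in *WT* cells. ARS727 was the larger of the pair in both strains, by 2.48 times in *rif1Δ* and 3.21 times in *WT* cells.

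The next 4 origins were strong in both strains and at or below *WT* level in *rif1Δ* cells. ARS728 (715273 to 715556), between *CLD1*, a phospholipase acting on cardiolipin, and YGR111W, had 128 in *rif1Δ* and 134 in *WT* cells (log2 ratio -0.07). ARS729 (777967 to 778216), between *SKN1*, a gene of cell wall glucan synthesis, and the tRNA gene *SUF4*, had 144 in *rif1Δ* and 193 in *WT* cells (log2 ratio -0.42). ARS731 (834492 to 834736), at the end of *PUS6*, a tRNA pseudouridine synthase, had 286 in *rif1Δ* and 433 in *WT* cells (log2 ratio -0.60). Its difference of -0.60 was the lowest log2 ratio among the 8 origins with a *WT* signal of at least 100. ARS731.5 (888350 to 888599), between *XKS1*, which encodes xylulokinase, and *SKI6*, a core subunit of the exosome, had 444 in *rif1Δ* and 493 in *WT* cells (log2 ratio -0.15). It was the strongest origin of both arms in both strains.

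Beyond ARS731.5 no *WT* summit of at least 20 was found over 182 kb up to the edge of the window. The highest *WT* bin there, more than 5 kb from ARS731.5, was 14.1, above the alternative limit of 10. In *rif1Δ* cells this stretch held 2 summits, at the 2 listed origins in it, and reached 30.8. ARS733 (977730 to 977979), at the end of *MPC3*, a subunit of the mitochondrial pyruvate carrier, had 26.7 in *rif1Δ* and 13.9 in *WT* cells (log2 ratio 0.90). ARS734 (999448 to 999695), between *PUP2*, a proteasome subunit, and *ENO1*, an enolase, had 29.8 in *rif1Δ* and 9.64 in *WT* cells (log2 ratio 1.54). Both distal stretches free of *WT* summits at the limit of 20 had *rif1Δ* peaks at every listed origin. The list was made from peaks called in these same libraries, so this is in part built in. The *rif1Δ* signals of ARS733 and ARS734 were lower than those of ARS702 and ARS704 on the left. They were near those of the other 2 distal left-arm origins, 28.8 at the unnamed origin at 31980 and 29.4 at ARS706.

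Compared with one another, the 23 origins were spread less widely in *rif1Δ* than in *WT* cells. Signals ran from 17.9 to 444 in *rif1Δ* cells, a 24.8-fold range, and from 3.10 to 493 in *WT* cells, a 159-fold range. The SD over origins of log2(signal + 1) was 1.5 in *rif1Δ* and 2.05 in *WT* cells. The order of the origins was partly kept between strains (Spearman's rho 0.73 across 23 origins, which are not replicates). Over all 392 listed origins this SD was 1.70 in *rif1Δ* and 2.26 in *WT* cells, so the narrower spread is not particular to chromosome VII. Per the study, more listed origins had a called peak in *rif1Δ* than in *WT* cells. How origins entered the list can thus give part of the narrower spread, on chromosome VII and over the whole list. The same limit holds for the counts that follow, and its size was not tested. A signal of at least 20 was seen at 21 of the 23 in *rif1Δ* and 15 in *WT* cells, against 86.2% in *rif1Δ* and 55.9% in *WT* cells over the whole list. One of at least 50 was seen at 13 in *rif1Δ* and 12 in *WT* cells, against 58.7% in *rif1Δ* and 41.6% in *WT* cells.

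All 8 origins with a *WT* signal under 20 were higher in *rif1Δ* cells, with log2 ratios of 0.90 to 2.89 and *rif1Δ* signals of 26.7 to 112. Of the 7 with 20 to under 100 in *WT* cells, 4 were higher and 3 lower in *rif1Δ* cells. Of the 8 with at least 100 in *WT* cells, 3 were higher (ARS710, ARS714 and ARS718) and 5 lower (ARS717, ARS728, ARS729, ARS731 and ARS731.5), between -0.60 and 0.79. Grouping by a value that enters the ratio gives part of this order by construction, and so can the way origins entered the list.

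**Figure D3:**
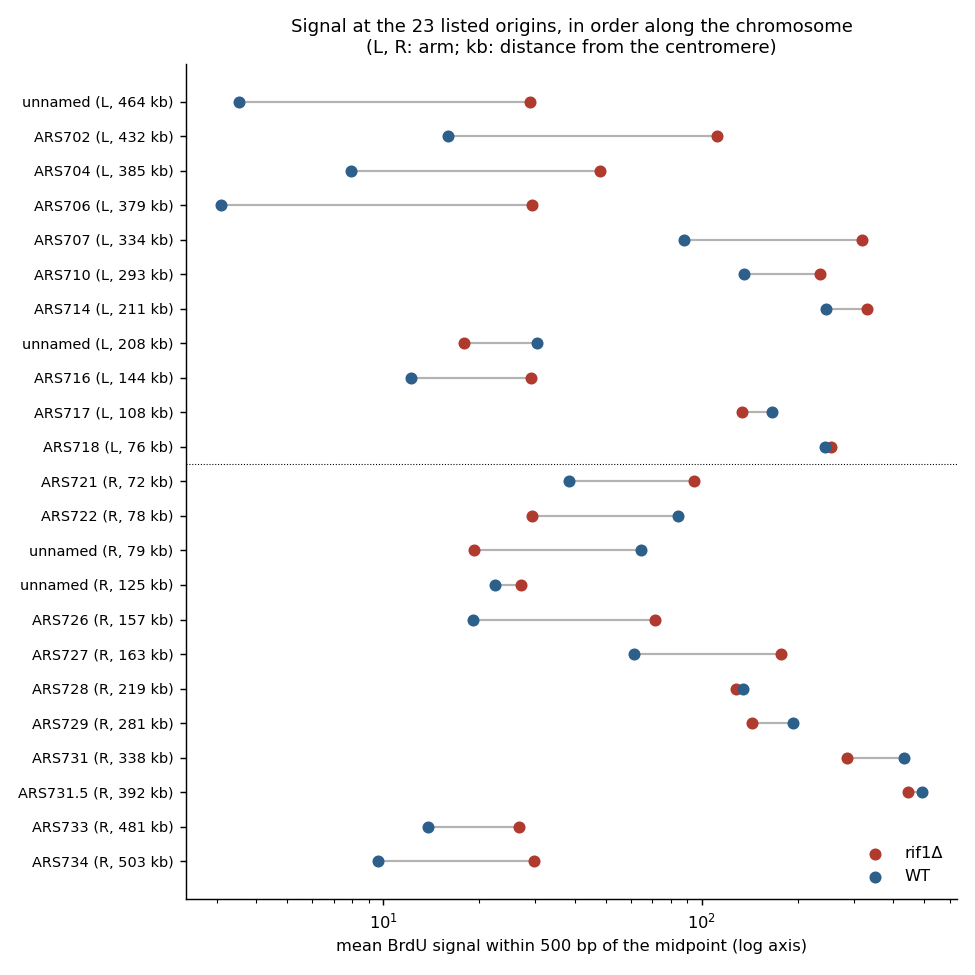
Mean BrdU signal within 500 bp of the midpoint (log axis) of the 23 listed origins, from the left end (top) to the right end (bottom), with *rif1Δ* as red and *WT* as blue points and a dotted line at the centromere. The *rif1Δ* points lie between 17.9 and 444 and the *WT* points between 3.10 and 493.

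Summits were also called from the profile without use of the list, as maxima with a height of at least 20, a prominence of at least 10 and a spacing of 2 kb, with summits of the strains within 1 kb taken as 1 peak. The arms held 27 such peaks of 443 in the nuclear genome, 13 on the left and 14 on the right. *rif1Δ* cells had 23 summits and *WT* cells 19, of which 15 peaks were shared. A summit in *rif1Δ* cells only was found at 8 peaks (29.6%, against 34.1% of all peaks) and in *WT* cells only at 4 (14.8%, against 12.4%).

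The 8 peaks of *rif1Δ* cells only were all at listed origins, against 88.1% of such peaks in the genome: the unnamed one at 31980, ARS702, ARS704, ARS706 and ARS716 on the left arm, and ARS726, ARS733 and ARS734 on the right. Their heights were 27.5 to 116 in *rif1Δ* cells, where *WT* cells had 3.63 to 19.4. The upper *WT* value, at ARS726, lies just under the height required of a summit. The list was made from peaks called in these same libraries, so the overlap of these 8 peaks with it is in part built in. Of the 27 peaks, 6 lay at no listed origin (22.2%, against 21.9% of all peaks), and each of the 6 was higher in *WT* cells, against 67% of the 97 unlisted peaks of the genome. The 4 peaks of *WT* cells only are among the 6, and their direction follows from how they were found.

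The tallest unlisted peak, at 711750, lay within YGR109W-B (707610 to 712254), 3.66 kb from ARS728. Its height was 42.9 in *rif1Δ* and 83.9 in *WT* cells, and the mean over the whole of YGR109W-B was 10.3 in *rif1Δ* and 35.0 in *WT* cells. Whether the strains differ in sequence at YGR109W-B, or in how reads were placed there, was not tested. On the other side of ARS728 the signal showed no second peak. On the left arm, a *WT* summit of 28.6 at 384725, in *PUS2*, a pseudouridine synthase gene, stood 4.05 kb from ARS717, where *rif1Δ* cells had 6.75. The other 4, at 271725 (in *SCS3*), 413425 (near *RIM8*), 625425 (in *ART5*) and 766225 (between *TPO2* and *CBF2*), had heights of 13.9 to 21.4 in *rif1Δ* and 20.6 to 27.9 in *WT* cells. These heights differ little from the limit of 20, and the count of unlisted peaks was 15 with a limit of 10 and 1 with a limit of 40.

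At the 15 peaks with a summit in both strains, tracts were narrower in *rif1Δ* than in *WT* cells at 14, with the one at 766225 the exception. Over the 237 such peaks of the genome this held for 86.5%. The median width at 50% of the height was 1.60 kb (range 0.90 to 2.70) in *rif1Δ* and 1.90 kb (range 1.2 to 3.60) in *WT* cells. The widest *WT* peak, ARS727, was 2.00 kb wide in *rif1Δ* and 3.60 kb in *WT* cells, and most of the excess lay on its right side, which was 0.90 kb long in *rif1Δ* and 2.40 kb in *WT* cells, against 1.05 kb in *rif1Δ* and 1.15 kb in *WT* cells on its left side. Summits were at nearly the same place, with a median shift of 50 bp and at most 250 bp. Median smoothing over 1 kb sets a lower bound on these widths and flattens summits.

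The arms were then compared at equal distance from the centromere, which was placed in the gap between *ERG26* and *EFM5* (496503 to 497132). Over the full windows the mean signal of the left arm was 10.9 in *rif1Δ* and 8.64 in *WT* cells (log2 of the ratio of means 0.34), and that of the right arm 9.59 in *rif1Δ* and 11.5 in *WT* cells (-0.27). Without the 2.5 kb on each side of ARS707 the value of the left arm was 0.19, and without those of ARS731 that of the right arm was -0.18. Of the origins left out in turn, these moved the value of their arm most toward 0. Outside 2.5 kb of every listed origin the log2 ratio of means was 0.07 on the left and -0.34 on the right, and outside 10 kb 0.20 and -0.05.

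From 20 to 470 kb, the range of the bands on both arms, the left arm averaged 11.0 in *rif1Δ* and 8.74 in *WT* cells, and the right arm 10.7 in *rif1Δ* and 13.3 in *WT* cells. Of 9 bands of 50 kb, the right arm had the higher mean in 2 in *rif1Δ* cells and in 6 in *WT* cells. Within the left arm the mean was higher in *rif1Δ* than in *WT* cells in 7 of 9 bands, and within the right arm in 2 of 9. At 70 to 120 kb both arms were lower in *rif1Δ* cells. The left arm, with ARS717 and ARS718, had 19.7 in *rif1Δ* and 26.8 in *WT* cells, and the right arm 6.98 in *rif1Δ* and 9.50 in *WT* cells. The log2 ratio of the right arm exceeded that of the left in 1 band, at 120 to 170 kb. There the left arm, with ARS716, had 4.31 in *rif1Δ* and 3.38 in *WT* cells, and the right arm, with ARS726, ARS727 and the unnamed origin at 620243, had 17.5 in *rif1Δ* and 10.2 in *WT* cells. When position was taken as a share of arm length, the right arm was higher in 5 of 9 bands in *rif1Δ* and 6 of 9 in *WT* cells. With bands of 100 kb it was higher in 2 of 4 in *rif1Δ* and 3 of 4 in *WT* cells, so the size of the drop in *rif1Δ* cells depends on how the bands are drawn.

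**Figure D4:**
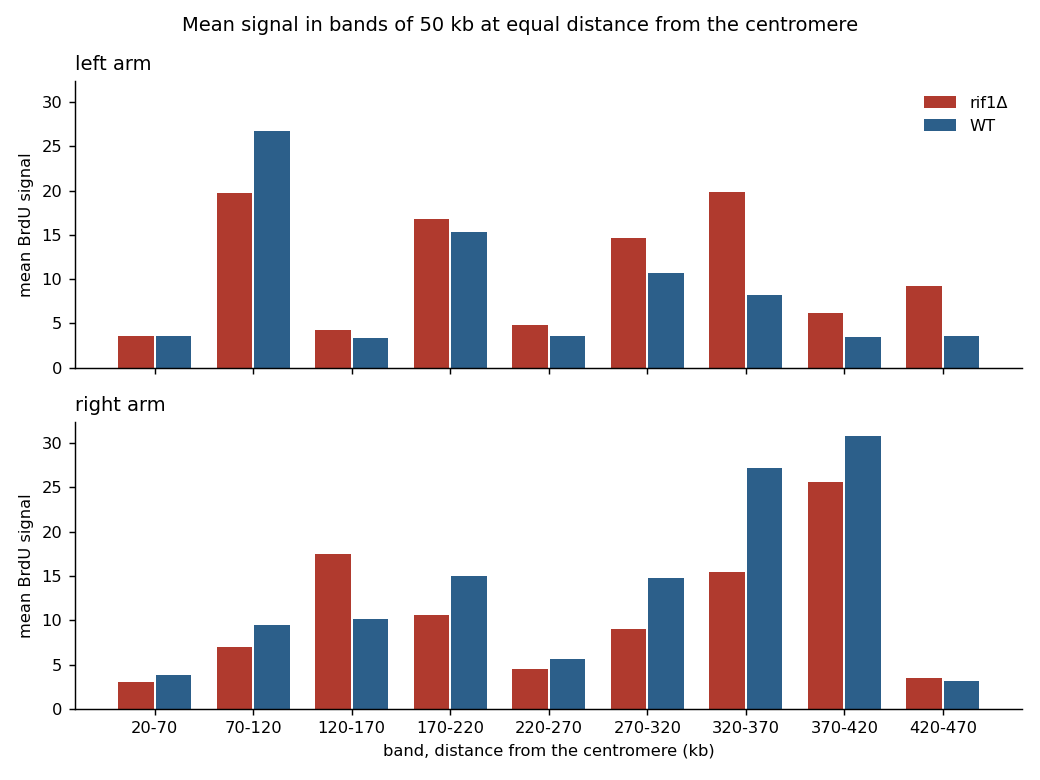
Mean BrdU signal in 9 bands of 50 kb from 20 to 470 kb from the centromere, left arm above and right arm below, with *rif1Δ* (red) left of *WT* (blue) in each band. At 320 to 370 kb the left arm has 19.9 in *rif1Δ* and 8.26 in *WT* cells and the right arm 15.5 in *rif1Δ* and 27.2 in *WT* cells.

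The widest gap between the arms in log2 ratio lay at 320 to 370 kb. The left arm, with ARS707, had 19.9 in *rif1Δ* and 8.26 in *WT* cells (log2 ratio 1.27), and the right arm, with ARS731, had 15.5 in *rif1Δ* and 27.2 in *WT* cells (-0.81). At 370 to 420 kb the left arm, with ARS704 and ARS706, had 6.18 in *rif1Δ* and 3.5 in *WT* cells, while the right arm, with ARS731.5, had 25.6 in *rif1Δ* and 30.8 in *WT* cells. At 420 to 470 kb the left arm, with ARS702 and the unnamed origin at 31980, was the higher of the 2 arms in both strains. It had 9.27 in *rif1Δ* and 3.55 in *WT* cells, and the right arm, which has no listed origin there, 3.52 in *rif1Δ* and 3.17 in *WT* cells. Past 470 kb on the right arm, up to the edge of the window, ARS733 and ARS734 lay in a region of 4.80 in *rif1Δ* and 3.65 in *WT* cells.

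Single origins at matched distance gave the same picture. ARS707 at 334 kb on the left had a log2 ratio of 1.84, against -0.60 at ARS731 at 338 kb on the right. In *rif1Δ* cells their signals were 318 at ARS707 and 286 at ARS731, and in *WT* cells they were 88.3 at ARS707 and 433 at ARS731. ARS704 at 385 kb on the left had a log2 ratio of 2.46, against -0.15 at ARS731.5 at 392 kb on the right. Nearer the centromere, ARS714 at 211 kb and ARS728 at 219 kb differed less, with 0.43 at ARS714 and -0.07 at ARS728. ARS718, at 75.6 kb on the left, had a log2 ratio of 0.06, between those of ARS721 (1.28, at 71.8 kb) and ARS722 (-1.49, at 78.0 kb) on the right.

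Across the left-arm origins the log2 ratio increased with distance from the centromere (Spearman's rho 0.83, Pearson's r 0.86, n = 11 origins), and the *WT* signal decreased (rho -0.66). The *rif1Δ* signal had a weaker relation of the same sign (rho -0.25). Across the right-arm origins rho was 0.20 and r 0.25 for the log2 ratio (n = 12), 0.29 for the *rif1Δ* signal and -0.01 for the *WT* signal. These are descriptions over neighboring origins of 1 profile, which share libraries and smoothing, and the difference between the arms was not tested.

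**Figure D5:**
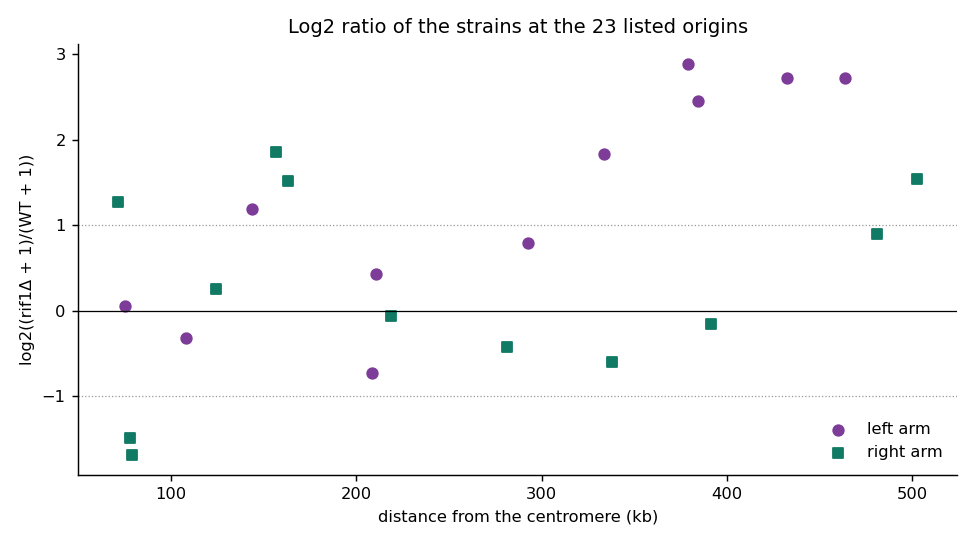
Log2((*rif1Δ* + 1)/(*WT* + 1)) of the 23 listed origins against distance from the centromere in kb, with circles for the left arm, squares for the right arm and dotted lines at 1 and -1. The 5 left-arm origins beyond 320 kb lie between 1.84 and 2.89, and at 338 and 392 kb the right-arm origins lie at -0.60 and -0.15. Farther out on the right arm, ARS733 at 481 kb lies at 0.90 and ARS734 at 503 kb at 1.54.

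The other 5 listed origins of the chromosome lie just outside the windows, and values near the ends and near the centromere differed in direction. Toward the left end, ARS700.5 had 77.2 in *rif1Δ* and 8.09 in *WT* cells (log2 ratio 3.11), and toward the right end ARS131a had 75.7 in *rif1Δ* and 11.5 in *WT* cells (2.61). On the sides of the centromere, ARS719 had 254 in *rif1Δ* and 352 in *WT* cells (-0.47) and ARS720 had 309 in *rif1Δ* and 436 in *WT* cells (-0.50). The fifth, an unnamed origin at 479993 to 482537, had 8.02 in *rif1Δ* and 24.5 in *WT* cells (-1.50).

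The 23 intervals overlapped a gene in 11 cases (47.8%), against 57.7% of all 392. A tRNA gene lay within 2 kb of 8 of them (34.8%), against 19.1% of all: ARS704, ARS706, ARS710, ARS714, the unnamed origin at 287952, ARS718, ARS727 and ARS729. These 8 had log2 ratios from -0.73 to 2.89, so they took in high ratios and values below 0. The signal was concentrated near the listed origins. The bins within 2.5 kb of one, 11.5% of the left arm and 10.1% of the right, held 66.9% of the left-arm signal in *rif1Δ* and 60.3% in *WT* cells, and 63.2% of the right-arm signal in *rif1Δ* and 61.1% in *WT* cells. Since the list was made from peaks called in these same libraries, this concentration is in part built in. How origins entered the list can also affect the difference between strains in these shares, and its size was not tested.

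Among the arms of the 16 chromosomes, cut in the same way, those of chromosome VII had the most length per listed origin, 44.0 kb. Their median log2 ratio of 0.79 ranked 8 of 16 from the highest and their share of origins above 1 ranked 10. Over the 291 listed origins on the arms of the other 15 chromosomes the median log2 ratio was 0.70, with 42.6% above 1 and 9.28% below -1. The log2 ratio of the mean signals of both arms, -0.01, ranked 9. The mean signal itself ranked 13 in *rif1Δ* and 11 in *WT* cells. By the ratios between strains, chromosome VII as a whole lay near the middle of the genome. Its left and right arms, at 0.34 and -0.27, lay on either side of that middle. The values of the other chromosomes pool both arms, so how far single arms usually lie apart was not tested.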

How the data were processed

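BrdU-IP-Seq signal was analysed for *rif1Δ* and *WT* cells in 0.2 M HU, 2 libraries each. Per the study's methods, the authors removed barcodes, aligned paired reads with Bowtie2 to R64 and counted them in 50 bp bins. Median smoothing over 1 kb, quantile normalization of the replicates, averaging of the 2 replicates and a second smoothing followed. The submitters' processing notes also name bedtools. The deposited signal is this smoothed coverage, 1 averaged column per strain, so depth per library is unknown. The scaling between strains is not given in the sources used here.

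Origin positions came from the study's list, and its classes, called from these same libraries, were not used. Genes and the centromere gap came from the R64 gene table of RefSeq. No sequence is printed, since no genome sequence was used here. All listed origins of the windows are named, with up to 3 of the tallest unlisted peaks on each arm. The members and lists were chosen with earlier results of these data known. Since columns are means, all comparisons are descriptive. Alternatives changed the window, pseudocount, scaling, background, origins kept, peak limits, bands and region, each alone. Calculations used pandas 2.3.3, scipy 1.17.1, numpy 2.4.6 and matplotlib 3.10.9 under Python 3.11.15. Peak finding and the log2 ratios of origins were tested on simulated profiles of well-separated peaks. Close neighbors, widths, bands, arm means and stretches of very low signal were not covered by that test.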

Additional observations from a re-analysis of the deposited data

How the results depend on the processing

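No paired analysis was possible because the deposited columns are means of both replicates of a strain, which also kept any replicate from being left out. The alternatives for matches to the ARS consensus were not run, because no genome sequence was used. The count of origins with a log2 ratio above 1 stayed between 8 and 11 and the left-arm median between 0.66 and 1.51. The right-arm median was -0.058, of the opposite sign, with the mean within 2.5 kb, and 0.90 with only isolated intervals, which also left 0 origins below -1. The peak limits moved counts most. With a height of 10 there were 29 *WT* peaks, 7 peaks of *WT* cells only and 15 unlisted ones. With a height of 40 there were 4 of *rif1Δ* cells only, 1 of *WT* cells only and 1 unlisted. Peaks of *WT* cells only numbered 2 with a prominence of 20, a spacing of 5 kb or equal total signal, and unlisted peaks 3 with that prominence or spacing. The right arm had the higher *rif1Δ* mean in 2 of 4 bands of 100 kb and in 5 of 9 bands by share of arm length. At 25% of the height, widths were 2.95 kb in *rif1Δ* and 3.5 kb in *WT* cells, larger by construction. The left-arm minus right-arm difference in the log2 ratio of means, 0.60, stayed above 0 in every alternative run, from 0.25 to 0.79. Leaving out single origins or the bins near listed origins was chosen after seeing the data. Of 201 values for single origins, 10 moved by over 1.5 times and 3 changed sign, none with a log2 ratio past 1. The outer left-arm origins moved most: with the mean within 2.5 kb the unnamed origin at 31980 had 2.03, ARS704 1.79 and ARS706 2.07, with a pseudocount of 10 they had 1.52, 1.70 and 1.59, and with the background median subtracted ARS706 had 4.41 and the unnamed one 4.24. The changed signs were ARS728 (0.02, single bin), and with the mean within 2.5 kb the unnamed origin at 287952 (0.18) and ARS718 (-0.21). ARS716 came to 0.66 with the mean within 2.5 kb and 0.82 with a pseudocount of 10, and ARS721 to 0.87 with the mean within 2.5 kb. The cause of these changes was not tested.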
